A study of Peromyscus maniculatus with 16 samples.

Results

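Hepatic iron handling was followed through 10 genes whose products take up, sense, store, export or carry iron: Hamp, Tfrc, Tfr2, Tf, Fth1, Ftl1, Slc40a1, Hfe, Bmp6 and Cp. They were picked by symbol, and 6 of the 10 had a row among the 16910 genes of the count table: Slc40a1, Cp, Tfrc, Tfr2, Hfe and Bmp6. All 6 passed the filter on low counts. The other 4, Hamp (hepcidin), Tf (transferrin) and the ferritin chains Fth1 and Ftl1, were not analysed here, so the hormone and the storage protein of iron are missing from what follows.

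The animals were 16 deer mice (Peromyscus maniculatus), whose liver RNA was sequenced. This North American rodent is kept outbred, and all animals were 10 months old at termination. The 6 control animals (C) ate regular chow, and 10 animals ate a high fat diet (HFD) rich in fat and sucrose for 28 weeks. Of the latter, 5 had steatosis, which is fat stored in the liver, on histology (S) and 5 did not (NS). Diet was assigned, whereas steatosis was an outcome in animals on the same diet. Each group held 1 animal of the SM2 stock (P. maniculatus sonoriensis), and the other 13 animals were of the BW stock (P. maniculatus bairdii), both kept as outbred colonies. C and NS were all male. S held 3 females, all BW, and 2 males, 1 BW and 1 SM2, so that female sex and steatosis cannot be told apart outside S.

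Iron leaves cells through ferroportin, and hepcidin, a peptide hormone made by hepatocytes, closes that exit by making ferroportin be degraded. Hepatocytes raise hepcidin when BMP6 from sinusoidal endothelial cells activates SMAD proteins, and when transferrin receptor 2 and HFE sense iron-loaded transferrin. Transferrin receptor 1 brings iron in, and its mRNA is stabilised by iron regulatory proteins when the cell is short of iron.

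Library totals ran from 4640733 to 11349971 counts. Levels are given as CPM, counts scaled to the TMM-adjusted library size, which compare animals within a gene and not genes with each other. A gene was called at an edgeR quasi-likelihood p, adjusted by the Benjamini-Hochberg method over the 12639 genes tested, under 0.1, and additionally at a fold change of 2. Hepatocyte markers (6 of 8 in the table) summed to between 28900 and 58200 CPM. Markers of other cell types stood apart in some livers: 8 stellate cell markers summed to 2400 CPM in the BW male of S, against 204 to 540 CPM elsewhere, and 9 Kupffer cell markers to 1180 CPM in a female of S, replicate 5, against 177 to 656 CPM elsewhere. That female also had the highest sum of 5 cholangiocyte markers, 35 CPM against 4.79 to 18.6 CPM elsewhere, and the SM2 livers of NS and S had the highest erythroid sums. The markers within a sum differed. In S vs C, where 10.8% of all genes were called, 2 of 8 stellate markers were, Col1a1 higher and Dcn lower. Of 6 myeloid markers tested in S vs C, 2 were called, S100a8 and S100a9, both lower. The 8 myeloid markers in the table summed to 5.06 to 25.4 CPM in S, 10.7 to 57.4 CPM in NS and 27.2 to 76.7 CPM in C. For the myeloid marker Cxcr2, 2 of 5 S livers lay above all of C and 1 below. Above all males lay 0 of 3 S females for Krt19 and Sox9, and 1 of 3 for the cholangiocyte markers Krt7, Spp1 and Cftr. In whole liver, fewer cells of a type and less RNA per cell cannot be told apart.

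Among the 6 genes, Slc40a1 was called in S vs C and no other was. That is 1 of 6, where 10.8% of all genes tested were called. It was also the 1 that reached a 2-fold change, which 4.06% of all genes did. The median log2 fold change of the 6 was -0.01, against 0.10 over all genes. For NS against C, edgeR called 0 of 6, against 0.0791% of all genes, or 0.0712% with the fold change required. In S vs NS, 0 of 6 were called, against 0.00791% of all genes under either rule. In HFD vs C, which sets the mean of S and NS against C, 0 of 6 were called, against 2.71% of all genes, or 0.894% with the fold change. At an unadjusted p under 0.05, 1 gene passed in each of these 3 comparisons, Hfe in NS vs C and Slc40a1 in the other 2. Of all 12639 genes, 1048 passed in NS vs C, 1381 in S vs NS and 2262 in HFD vs C. DESeq2 also called 0 of the 6 in all 3.

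**Figure D1:**
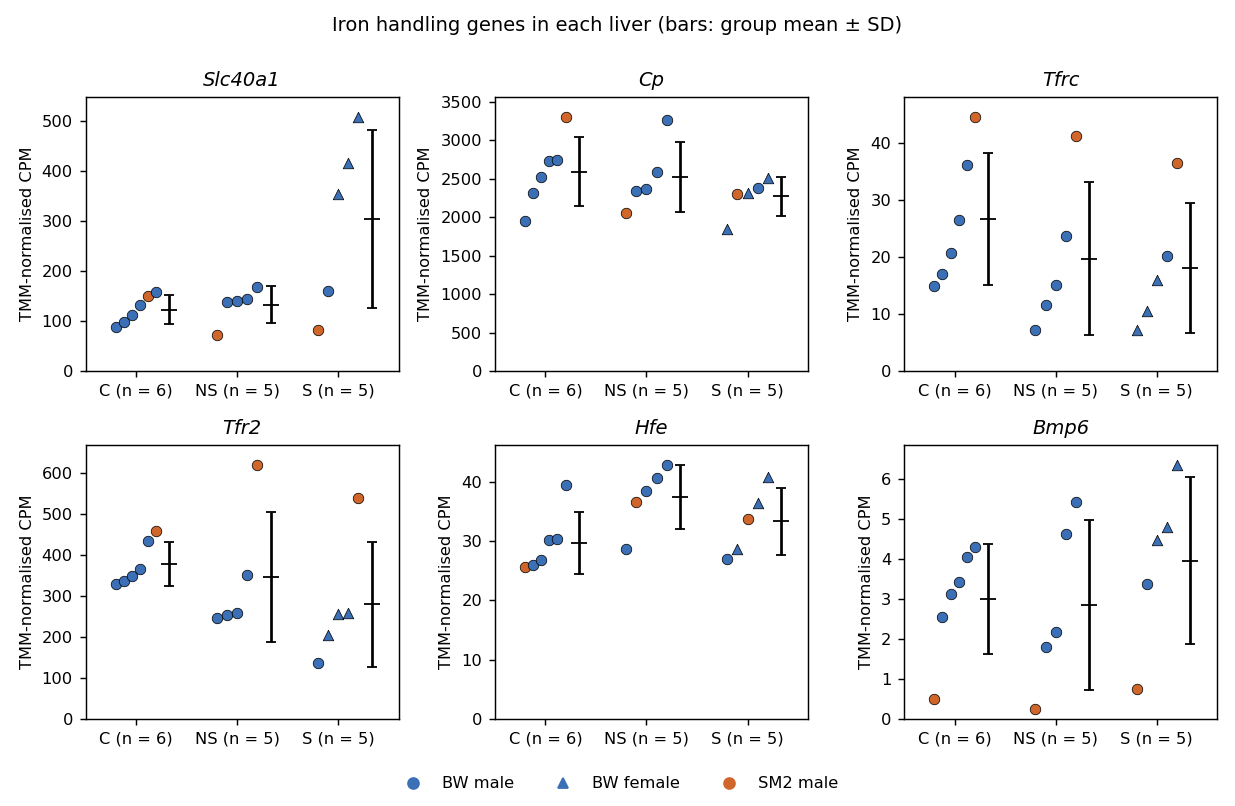
TMM-normalised CPM of the 6 iron handling genes in each of the 16 livers, by group on the x axis. Points are animals (blue BW, orange SM2, triangles females), and the bar beside them is the group mean ± SD. The 3 females of S had the highest Slc40a1 (354 to 508 CPM), and the SM2 animal of each group had the lowest Bmp6 and the highest Tfrc and Tfr2 of its group.

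Slc40a1 encodes ferroportin, the iron exporter of the cell, which in liver is most abundant in Kupffer cells, the resident macrophages that recycle iron from red cells. In C it ranged from 88.4 to 159 CPM, with a median of 122 CPM. In NS the values were 71.7, 139, 141, 145 and 169 CPM. In S they were 354, 508 and 416 CPM in the females, 161 CPM in the BW male and 83.0 CPM in the SM2 male. The 3 females thus lay above every other liver, and the 2 males of S lay within the range of C and NS.

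Slc40a1 was 2.47-fold higher in S than in C (log2 fold change 1.31, SE 0.35, 95% interval 0.57 to 2.04, edgeR adjusted p = 0.0486). S vs NS gave a log2 difference of 1.20 (SE 0.37, edgeR adjusted p = 0.307), and NS vs C gave 0.11 (SE 0.35, edgeR adjusted p = 0.966). The call did not survive any fit that took sex into account. With sex as a covariate the log2 fold change was -0.02 (95% interval -0.67 to 0.63, edgeR adjusted p = 0.982), and among male animals alone, with 2 in S, it was again -0.02 (edgeR adjusted p = 0.983). Among BW animals alone, where 3 of the 4 S animals were females, it was 1.60 (SE 0.26, edgeR adjusted p = 0.00796). Leaving out C replicate 4 raised the edgeR adjusted p to 0.104. Without the S female of high Kupffer marker content it was 0.0788, with a log2 fold change of 1.17.

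The sex term was estimated in a fit with group, stock and sex, and since all females were in S it rests on 3 females against 2 males of that group. Slc40a1 was 3.16-fold higher in females (log2 fold change 1.66, SE 0.35, 95% interval 0.92 to 2.40, edgeR adjusted p = 0.0404). It was the 1 of 6 iron handling genes called for sex, where 1.26% of all genes were called and 1.21% with a 2-fold change. The term depends on few animals: without the BW male of S it was 2.15 with an edgeR adjusted p of 0.204, and without S replicate 4, a female, it was 1.52 with 0.143. Kupffer cell markers moved the same way: the 9 of 10 in the table summed to 567, 588 and 1180 CPM in the females and to 177 to 656 CPM in the 13 males, with none at 0. Their median log2 fold change for sex was 1.36, against 0.02 over all genes, and edgeR called 0 of 9, while DESeq2 called 2 and 8 had an unadjusted edgeR p under 0.05. Over all 12639 genes, DESeq2 called 264 for sex and 1452 had such a p. Sinusoidal endothelial markers summed to 426 to 444 CPM in the females, who were all BW, and 185 to 396 CPM in the males, or 249 to 396 CPM in BW males. Their median log2 fold change for sex was 0.33 and edgeR called 0 of 8. Taken singly, each of the 8 overlapped between females and males. The part of either cell type's markers in the Slc40a1 difference was not tested.

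**Figure D2:**
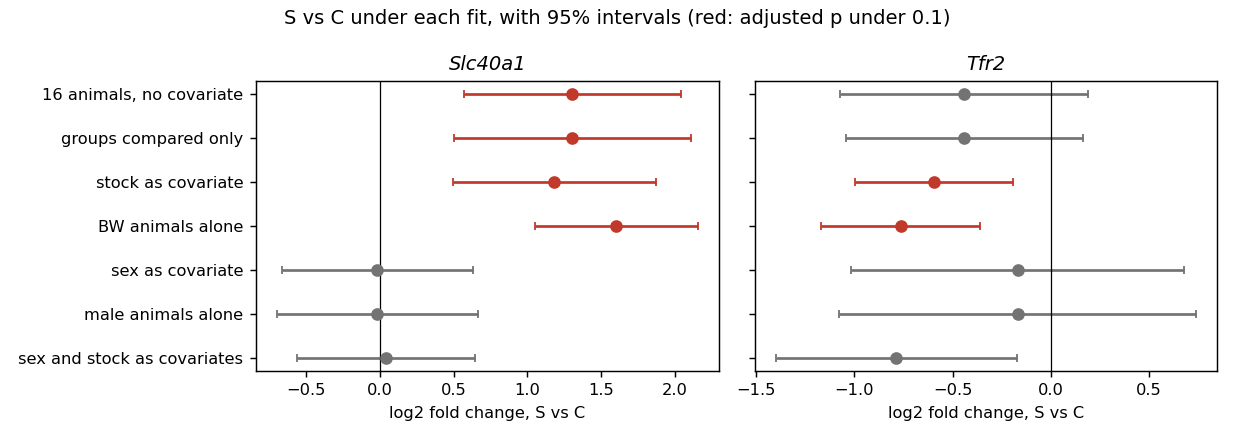
Log2 fold change in S vs C (x axis) of Slc40a1 and Tfr2, with 95% intervals, under 7 fits that differ in animals or covariates. Slc40a1 was called in the 4 fits without sex (red) and lay at -0.02 to 0.04 in the 3 with males alone or sex as a covariate, while Tfr2 was called in the 2 fits that took stock but not sex into account.

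Cp encodes ceruloplasmin, the copper-carrying oxidase secreted by hepatocytes that loads exported iron onto transferrin. It varied little, with 1.79-fold between the highest and lowest of all 16 livers (1843 to 3293 CPM). In C it ranged from 1950 to 3293 CPM with a median of 2623 CPM. NS held 2051, 2338, 2362, 2583 and 3266 CPM, and S held 1843, 2302, 2316, 2371 and 2504 CPM. The groups overlapped throughout. The log2 fold change in S vs C was -0.19 (95% interval -0.52 to 0.14, edgeR adjusted p = 0.470), so the interval leaves room for a drop of up to 0.52 and a rise of 0.14 on the log2 scale.

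Tfrc encodes transferrin receptor 1, which carries iron-loaded transferrin into the cell. In C it ranged from 14.9 to 44.5 CPM with a median of 23.6 CPM. In NS it was 7.21, 11.6, 15.1 and 23.6 CPM in the BW animals and 41.2 CPM in the SM2 animal. In S it was 7.25, 10.6 and 15.9 CPM in the females, 20.3 CPM in the BW male and 36.4 CPM in the SM2 male. The highest animal of each group was its SM2 animal. Neither S vs C (log2 fold change -0.56, 95% interval -1.51 to 0.38, edgeR adjusted p = 0.462) nor NS vs C (-0.43, 95% interval -1.37 to 0.50, edgeR adjusted p = 0.843) passed the test. Within BW animals the fold changes were -0.78 (SE 0.37, edgeR adjusted p = 0.194) for S vs C and -0.69 (SE 0.36, edgeR adjusted p = 0.801) for NS vs C.

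Tfr2 encodes transferrin receptor 2, a sensor of transferrin saturation on hepatocytes. In C it ranged from 329 to 457 CPM with a median of 356 CPM. In NS the BW animals had 247, 252, 258 and 351 CPM and the SM2 animal 620 CPM. In S the females had 205, 256 and 259 CPM, the BW male 135 CPM and the SM2 male 538 CPM. Thus all 4 BW livers of S lay below all 5 BW livers of C (329 to 435 CPM), and the SM2 livers lay above every BW liver. In NS, 3 of the 4 BW livers also lay below all of C. How many of all genes separate the livers in this way was not counted.

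Over all animals Tfr2 in S vs C gave a log2 fold change of -0.44 (95% interval -1.07 to 0.19, edgeR adjusted p = 0.381). Among BW animals alone it was 1.70-fold lower in S (log2 fold change -0.77, SE 0.19, edgeR adjusted p = 0.0424), in a fit that called 12.6% of its 12333 genes, or 4.95% with a 2-fold change, which Tfr2 did not reach. In that fit 2 of the 6 genes were called, Slc40a1 higher and Tfr2 lower. With stock as a covariate the value was -0.59 (SE 0.19, edgeR adjusted p = 0.0654). With sex added to stock it was -0.79 (SE 0.29, edgeR adjusted p = 0.115), and with sex and no stock term -0.17 (SE 0.40, edgeR adjusted p = 0.843). Among BW animals alone, Tfr2 in NS vs C gave -0.40 (95% interval -0.80 to -0.004, edgeR adjusted p = 0.765). There, HFD vs C gave -0.58 (edgeR adjusted p = 0.104) and S vs NS gave -0.36 (95% interval -0.78 to 0.06, edgeR adjusted p = 0.423).

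Hfe encodes the HFE protein, which pairs with the transferrin receptors in iron sensing. It ranged from 25.6 to 39.6 CPM in C, with a median of 28.5 CPM. NS held 28.8, 36.7, 38.6, 40.8 and 43.0 CPM, and S held 27.0, 28.8, 33.7, 36.5 and 40.9 CPM. The groups overlapped, with 2 NS livers above all of C. The log2 fold change in NS vs C was 0.34 (95% interval 0.02 to 0.66, edgeR adjusted p = 0.594), and in S vs C it was 0.17 (95% interval -0.15 to 0.49, edgeR adjusted p = 0.528).

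Bmp6 encodes the ligand that drives hepcidin transcription and is made in liver mainly by sinusoidal endothelial cells. It was the scarcest of the 6 genes, at 2 to 73 counts per animal. In C it ranged from 0.492 to 4.30 CPM with a median of 3.29 CPM. In NS it was 1.79, 2.18, 4.64 and 5.43 CPM in the BW animals and 0.252 CPM in the SM2 animal. In S it was 4.82, 6.37 and 4.48 CPM in the females, 3.38 CPM in the BW male and 0.731 CPM in the SM2 male. The group comparisons were not called, and at this depth their intervals were wide: -0.85 to 1.68 on the log2 scale in S vs C, around 0.42 (edgeR adjusted p = 0.711). The lowest liver of each group was the SM2 one.

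**Figure D3:**
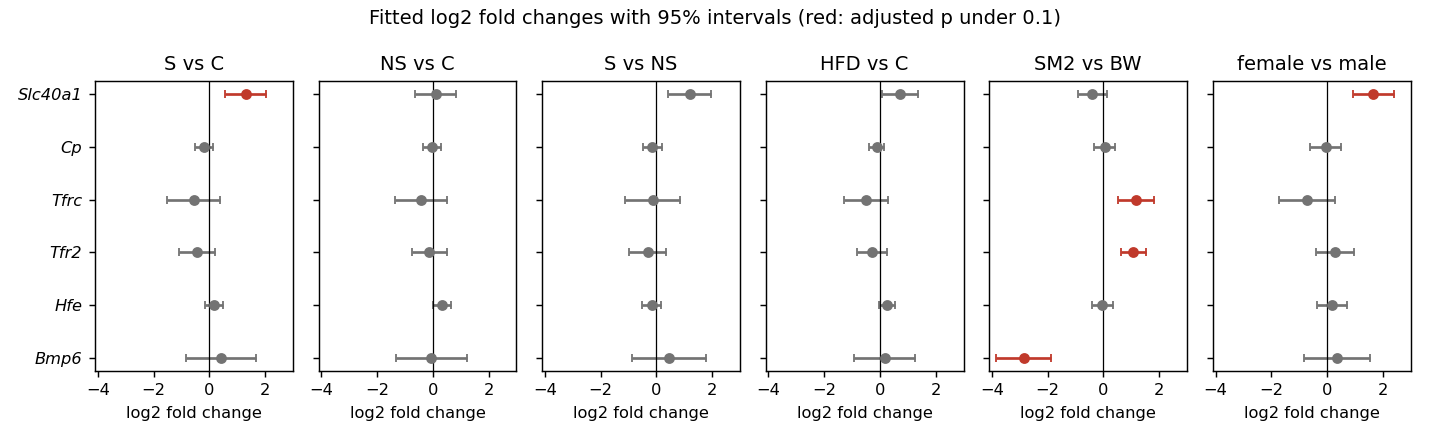
Fitted log2 fold changes (x axis) of the 6 genes in 6 comparisons, with 95% intervals. Red marks an edgeR adjusted p under 0.1: Slc40a1 in S vs C and for sex, and Tfrc, Tfr2 (higher) and Bmp6 (lower) in SM2 vs BW.

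In SM2 vs BW, 3 of the 6 genes were called, where 20.8% of all genes were called. The same 3 reached a 2-fold change, as 11% of all genes did. The comparison sets 3 SM2 males, 1 from each group, against 13 BW animals, and differences in how reads of either stock align to the reference cannot be told apart from differences in RNA. For these 3 genes the SM2 range did not overlap the BW range, though for Tfrc only narrowly (36.42 against 36.2 CPM). How many of all genes separate the stocks in this way was not counted.

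Bmp6 had 5, 2 and 6 counts in the SM2 livers of C, NS and S, or 0.252 to 0.731 CPM, against 14 to 73 counts, or 1.79 to 6.37 CPM, in the 13 BW livers. It was 7.26-fold lower in SM2 (log2 fold change -2.86, SE 0.47, 95% interval -3.85 to -1.87, edgeR adjusted p = 0.000794). Pooled over animals, 13 counts in 26465047 stood against 420 in 107049075, a ratio of 7.99 with an exact 95% interval of 4.62 to 15.1 that covers counting error alone. Leaving out each animal in turn kept the fold change between -3.13 and -2.53, with edgeR adjusted p of at most 0.0153. Of sinusoidal endothelial markers, 8 of 10 were in the table and none was at 0. They summed to 185 to 262 CPM in SM2 and to 249 to 444 CPM in BW. Of the 8, 4 were called, where 20.8% of all genes were, Stab2, Pecam1 and Dnase1l3 lower and Lyve1 higher. Their part in the Bmp6 difference was not tested.

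Tfr2 was 2.1-fold higher in SM2, at 457 to 620 CPM against 135 to 435 CPM (log2 fold change 1.07, SE 0.22, edgeR adjusted p = 0.00395). Leaving out 1 animal at a time gave 0.80 to 1.49, with edgeR adjusted p of at most 0.0720. Tfrc was 2.22-fold higher, at 36.4 to 44.5 CPM against 7.21 to 36.2 CPM (log2 fold change 1.15, SE 0.31, edgeR adjusted p = 0.0203). That call was lost without the SM2 animal of NS (0.91, edgeR adjusted p = 0.211). Erythroid precursors are rich in transferrin receptor 1, and 5 of 12 erythroid markers were in the table: they summed to 8.17, 22.3 and 27.8 CPM in the SM2 livers of C, NS and S and to 4.69 to 11.7 CPM in BW, with Klf1 at 0 in all 16 animals. Of the 3 erythroid markers tested, Epor was called higher in SM2 (1.45, edgeR adjusted p = 0.0331), where 20.8% of all genes were called. The part of erythroid cells in the Tfrc difference was not tested.

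The other 3 genes did not separate the stocks. Slc40a1 was 71.7 to 149 CPM in SM2 and 88.4 to 508 CPM in BW (log2 fold change -0.40, 95% interval -0.91 to 0.11, edgeR adjusted p = 0.291). It was called without the SM2 animal of C (-1.01, edgeR adjusted p = 0.0132). Hfe differed by -0.04 (95% interval -0.42 to 0.34) and Cp by 0.05 (95% interval -0.34 to 0.43) on the log2 scale.

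**Figure D4:**
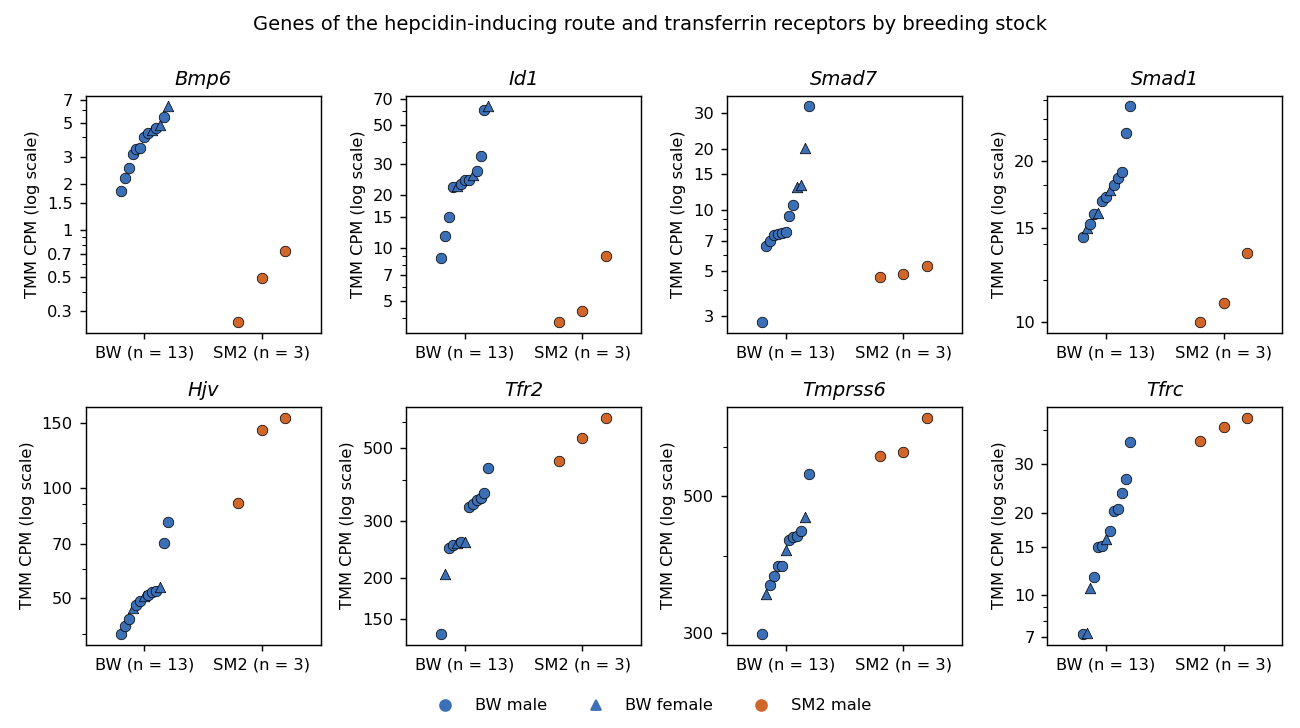
TMM-normalised CPM, on log axes, of 8 genes in the 13 BW and 3 SM2 livers. Points are animals, with triangles for females. Bmp6 and Smad1 lay lower and Hjv, Tfr2, Tmprss6 and Tfrc higher in all 3 SM2 livers than in any BW liver, while Id1 and Smad7 overlapped. How many of all genes separate the stocks in this way was not counted.

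The other genes of the BMP and SMAD route to hepcidin were read in the same way. Of 16 tested, 6 were called in SM2 vs BW, where 20.8% of all genes were, 2 higher and 4 lower, and the list's median log2 fold change was -0.41, against -0.03 over all genes. Id1, a direct BMP target, was 3.51-fold lower (edgeR adjusted p = 0.0259): SM2 livers had 8.96, 3.78 and 4.39 CPM in C, NS and S, and BW livers 8.81 to 63.6 CPM. Smad7, an inhibitory SMAD that BMP signalling induces, was 2.15-fold lower (edgeR adjusted p = 0.0498), at 4.63 to 5.24 CPM against 2.77 to 32.3 CPM. Smad1, a SMAD that BMP receptors activate, was lower with a log2 fold change of -0.65 (edgeR adjusted p = 0.0248).

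Hjv encodes hemojuvelin, the BMP co-receptor of hepatocytes, and moved the opposite way: it was 2.43-fold higher in SM2 (edgeR adjusted p = 0.000902), with 90.6, 143 and 155 CPM in C, NS and S, against 40.0 to 80.8 CPM in BW. Tmprss6, the protease that cleaves hemojuvelin and the most abundant gene of the list in CPM, was 1.53-fold higher (edgeR adjusted p = 0.0149), at 579 to 669 CPM against 299 to 542 CPM. Hjv and Tmprss6 were called in all 23 alternatives tried, and Id1 in 22 of 23, all but the one without the SM2 animal of NS. The Smad1 call was lost in 3 of 23, and for Smad7 the edgeR adjusted p reached 0.275 over the alternatives, with log2 fold changes from -1.53 to -0.63.

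Over 7 lists of further iron genes, 89 in all with 81 in the table and 77 tested, 28 were called in SM2 vs BW, or 36.4% against the 20.8% of all genes, 13 higher and 15 lower. The count fell to 10 without the SM2 animal of NS, to 15 without that of S and to 16 without the BW male of S. Uptake genes gave 8 of 14. Cd163, the macrophage receptor for haptoglobin-haemoglobin, stood at 18.2 to 32.4 CPM in SM2 and 0.156 to 5.16 CPM in BW (log2 fold change 3.81, SE 0.55, edgeR adjusted p = 0.000266). Kupffer cell markers summed to 177 to 385 CPM in SM2 and 323 to 1180 CPM in BW, with a median log2 fold change of -0.58. Of the 9, Adgre1 was called higher and Vsig4 and Marco lower, and their part in the Cd163 difference was not tested. Slc46a1, a transporter of folate and haem, was 1.88-fold higher (edgeR adjusted p = 0.00114). Steap3, the reductase that frees iron in endosomes after transferrin uptake, was 3.26-fold lower (edgeR adjusted p = 0.0152). The Steap3 call was lost without the SM2 animal of NS.

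Of 5 genes of the iron regulatory protein system, 3 were called in SM2, all lower, where 20.8% of all genes were called. Fbxl5, the ubiquitin ligase adaptor that removes iron regulatory protein 2, had a log2 fold change of -0.50 (edgeR adjusted p = 0.0200). Ireb2, which encodes that protein, had -0.72 (edgeR adjusted p = 0.0698), and Epas1, a hypoxia-inducible factor, -0.70 (edgeR adjusted p = 0.0621). Of 23 alternatives, the call was lost in 1 for Fbxl5, 4 for Ireb2 and 3 for Epas1. Each of these calls was lost without the SM2 animal of NS. Aco1, iron regulatory protein 1 and the most abundant in CPM, differed by 0.03 (95% interval -0.31 to 0.37). Haem genes gave 5 of 12, against 20.8% of all genes. Alad, an early enzyme of haem synthesis, was 2.28-fold higher (edgeR adjusted p = 0.000382), and the stocks did not overlap. Uros was higher (0.71, edgeR adjusted p = 0.0529) and Cpox lower (-0.73, edgeR adjusted p = 0.0223). Of 23 alternatives, the Uros call was lost in 2 and the Cpox call in 1. Alas1, the rate-limiting enzyme and the most abundant of the list in CPM, was not called, at -1.16 with a 95% interval of -2.55 to 0.24.

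In SM2 vs BW, where 20.8% of all genes were called, 3 of 7 inflammatory regulators of hepcidin were. Il22ra1, a receptor chain for interleukin 22, was higher at 3.59 (edgeR adjusted p = 0.0115). Jak1, a kinase of cytokine receptors, was higher at 0.50 (edgeR adjusted p = 0.0570), and Il1b, interleukin 1 beta, lower at -1.87 (edgeR adjusted p = 0.0628). Of 23 alternatives, the Jak1 call was lost in 3 and the Il1b call in 4. The Il1b call was lost when any 1 of the SM2 animals was left out. Leaving out the SM2 animal of NS also ended the calls of Jak1 and Il22ra1. Of 17 iron-sulphur cluster and mitochondrial iron genes, 2 were called, a smaller share than over all genes. Both were higher, Glrx5 (0.46, edgeR adjusted p = 0.0250) and the mitochondrial iron importer Slc25a37 (0.69, edgeR adjusted p = 0.0912). The Slc25a37 call was lost in 12 of 23 alternatives, over which its log2 fold change ran from 0.40 to 1.23. The Glrx5 call was lost in 1, the one without the SM2 animal of NS. Of 6 storage and release genes, the iron chaperone Pcbp1 was called lower (-0.48, edgeR adjusted p = 0.0684), and Pcbp2, the most abundant in CPM, was not (-0.18). The Pcbp1 call was lost in 5 of 23 alternatives. Lcn2, an iron-siderophore binding protein, was called lower in SM2 (-4.86, edgeR adjusted p = 0.00528) and in females (-4.58, edgeR adjusted p = 0.0878), and the latter call was lost in 15 of 23 alternatives. Yet 0 of 3 S females lay below all males for Lcn2. Its sex term was -6.36 without the BW male of S and -2.33 without the SM2 male of S.

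In S vs C the same 77 genes gave 14 calls, or 18.2% against 10.8% of all genes, 5 higher and 9 lower. For NS against C, edgeR and DESeq2 both called 0 of the 77, and 4 had an unadjusted edgeR p under 0.05. For S vs NS, edgeR called 0 and DESeq2 3, and 12 had an unadjusted edgeR p under 0.05. The 14 fell to 9 with sex as a covariate, 7 among males alone, and 6 without the BW male of S, and they numbered 11 without the S female of high Kupffer marker content. By library totals in place of TMM the split was 9 higher and 6 lower. Of the 9 lower genes, 4 were on the list of iron-sulphur and mitochondrial iron genes, 2 on that of haem, 2 on that of uptake and 1, Acvr2a, on that of BMP and SMAD genes.

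Blvra, biliverdin reductase, had 34.1, 38.0 and 41.3 CPM in the S females, 38.3 CPM in the BW male and 33.7 CPM in the SM2 male, against 58.7 to 78.6 CPM in C. The groups did not overlap, and Blvra was 1.85-fold lower in S (edgeR adjusted p = 0.0125). How many of all genes separate S from C without overlap was not counted, here and for the genes below. Hmox2, the constitutive haem oxygenase that makes biliverdin, was 150, 155, 167, 174 and 191 CPM in S against 203 to 294 CPM in C, again without overlap (1.51-fold lower, edgeR adjusted p = 0.0405). Blvra and Hmox2 are consecutive steps of haem breakdown, and both were called in all 27 alternatives, males alone included (Blvra -0.93 with edgeR adjusted p = 0.0461, Hmox2 -0.73 with 0.0866).

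Hp encodes haptoglobin, the plasma protein that binds free haemoglobin, and was the most abundant uptake gene in CPM. It stood at 4305, 4466, 4655, 8939 and 9331 CPM in S against 12130 to 24860 CPM in C, with no overlap (2.57-fold lower, edgeR adjusted p = 0.0241), and was called in all 27 alternatives. Hpx, hemopexin, which binds free haem, was lower with a log2 fold change of -0.58 (edgeR adjusted p = 0.0770) and lost that call in 11 of 27 alternatives. Haptoglobin is also an acute-phase protein. Of 12 other acute-phase genes listed, 6 were tested and 4 called, all lower, where 10.8% of all genes were called. They were Lbp (-1.42, edgeR adjusted p = 0.0610), Fgb (-0.66, edgeR adjusted p = 0.0456), Fgg (-0.61, edgeR adjusted p = 0.0523) and Fga (-0.48, edgeR adjusted p = 0.0954). Of 27 alternatives, the call was lost in 8 for Lbp, 2 for Fgb, 5 for Fgg and 19 for Fga. Among males alone, Lbp, Fgb and Fga lost it. Crp and Itih4 were not called. For Crp, 3 of 5 S livers lay above all of C and 1 below, and for Itih4, 0 lay above and 2 below. The part of the acute-phase genes in the haptoglobin difference was not tested.

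Of 17 iron-sulphur and mitochondrial iron genes, 4 were called in S vs C, all lower, where 10.8% of all genes were called. The list median was -0.26, against 0.10 over all genes. Fdx1, a mitochondrial ferredoxin that passes electrons through its iron-sulphur cluster, was 118, 140 and 148 CPM in the females, 103 CPM in the BW male and 118 CPM in the SM2 male of S. C lay at 150 to 261 CPM, so that the groups did not overlap (1.87-fold lower, edgeR adjusted p = 0.0159), and the call held in all 27 alternatives. Bola3, a late-acting assembly factor, was lower at -0.81 (edgeR adjusted p = 0.0452), Cisd1, an outer mitochondrial membrane iron-sulphur protein, at -0.72 (edgeR adjusted p = 0.0534), and Iscu, the assembly scaffold, at -0.54 (edgeR adjusted p = 0.0607). Of 27 alternatives, the call was lost in 1 for Bola3, 5 for Cisd1 and 9 for Iscu. Bola3 and Iscu lost it among males alone, and Iscu also with sex as a covariate. Hspa9, the mitochondrial chaperone with the highest CPM of the list, differed by -0.07 (95% interval -0.38 to 0.24).

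Among hepcidin regulators, 4 of 16 BMP and SMAD genes were called in S vs C, where 10.8% of all genes were. Acvr1, a BMP type I receptor, had 17.6, 18.5 and 32.8 CPM in the S females, 13.3 CPM in the BW male and 18.0 CPM in the SM2 male, against 7.32 to 12.6 CPM in C (2.09-fold higher, edgeR adjusted p = 0.0291). The ranges did not overlap, and the call was lost in the 3 fits with sex or males alone (log2 fold change 0.71 among males, edgeR adjusted p = 0.171). Smad7 was 2.72-fold higher (edgeR adjusted p = 0.0418), with 12.97, 13.16 and 20.23 CPM in the females, 32.3 CPM in the BW male and 5.24 CPM in the SM2 male against 2.77 to 7.78 CPM in C. Without the BW male it was no longer called (edgeR adjusted p = 0.106). Smad6, another inhibitory SMAD, was higher at 0.74 (edgeR adjusted p = 0.0927), and Acvr2a, a type II receptor, lower at -0.50 (edgeR adjusted p = 0.0996). Of 27 alternatives, the Smad6 call was lost in 16 and the Acvr2a call in 22.

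Jak1 was higher in S at 0.56 (edgeR adjusted p = 0.0923), the 1 call among 7 inflammatory regulators, where 10.8% of all genes were called. Slc22a17, a receptor for lipocalin 2, was higher at 1.57 (edgeR adjusted p = 0.0586) from 2 to 50 counts per animal. The lists of storage and release (6 tested) and of iron regulatory proteins (5 tested) gave 0 calls in S vs C by edgeR, with 0 and 1 genes at an unadjusted p under 0.05, and DESeq2 called 0 and 1. Over all 12639 genes, 3011 had such a p in S vs C and DESeq2 called 1723. In HFD vs C, 3 of the 77 genes were called, or 3.90% against 2.71% of all genes, all lower: Fdx1 (-0.57, edgeR adjusted p = 0.0641), Hmox2 (-0.50, edgeR adjusted p = 0.0682) and Blvra (-0.47, edgeR adjusted p = 0.0825). Of 26 alternatives, the HFD vs C call was lost in 10 for Fdx1, 9 for Hmox2 and 13 for Blvra. By library totals all 3 were lost. In NS vs C, the log2 fold change of Blvra ran from -0.22 to 0.05 over the fits. HFD vs C and S vs C share the C animals and the S animals.

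**Figure D5:**
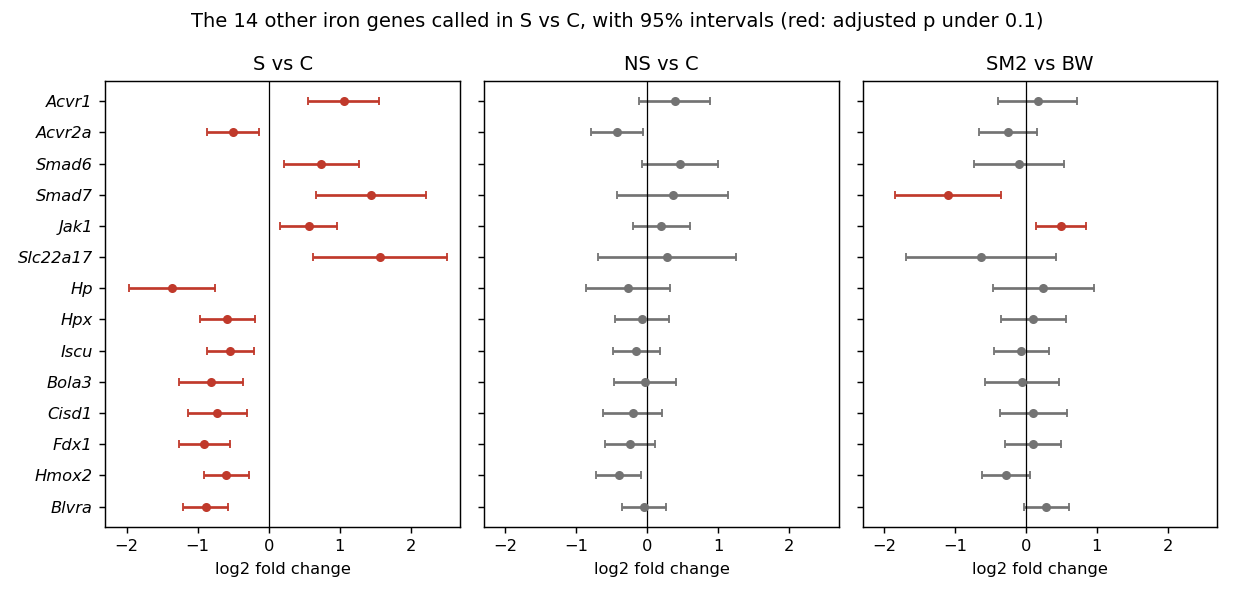
Log2 fold changes (x axis), with 95% intervals, of the 14 further iron genes called in S vs C, shown also for NS against C and for SM2 vs BW. Red marks an edgeR adjusted p under 0.1: all 14 for S against C, none of the 14 for NS against C, and Smad7 (lower) and Jak1 (higher) in SM2 vs BW.

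Iron regulatory proteins, when active, stabilise Tfrc mRNA and block ferroportin synthesis. Only RNA was measured here, so a block on making the protein would not show in the Slc40a1 level. The RNA levels of Tfrc and Slc40a1 were set against each other across livers. Since Slc40a1 in the 3 females stood apart, the relation was taken over the 13 male animals, on log2(CPM + 1). Pearson's r was -0.37 (permutation p = 0.214) and Spearman's rho -0.23 (permutation p = 0.445). Without the 2 animals farthest from the median of Tfrc, r was -0.54 (permutation p = 0.0891), and among the 10 BW males it was -0.13 (permutation p = 0.719). The tests were two-sided with 100000 resamples. This was the 1 pair computed of 8 considered, since 7 involve a gene that was not analysed here, so the adjusted value equals the raw p. A relation between these RNA levels was not detectable with these animals, and the activity of iron regulatory proteins was not tested.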

How the data were processed

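RNA-seq libraries were made from the livers of 16 animals with a directional kit. For the deposited raw counts per gene symbol, the authors used STAR (v2.7.2) with the HU_Pman_2.1 assembly, then featureCounts on reads that mapped uniquely. The strand setting and the symbol conversion are not given in the sources used here, so overlapping and antisense genes are uncertain. Of 16910 genes, 2251 had 0 counts in every animal, and 0 columns were left unmapped.

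Counts were tested with edgeR 4.0.16 (R 4.3.3) by glmQLFit and glmQLFTest, with TMM scaling, on the 12639 genes that reached 0.5 CPM in 1 or more animals, in 1 two-sided fit of C, NS and S. The adjusted p limit of 0.1 and the fold limit of 2 are those of the study. Each SE is the size of the log2 fold change divided by the square root of F. SM2 vs BW and female vs male, from a fit with group, stock and sex, were added after the counts were seen. The stock of the labels and the sex of the labels were used as given. Animals are separate individuals, and no pair of a group agreed within sampling noise (chi-square per degree of freedom at least 23.6). Alternatives were DESeq2 1.42.0, RLE factors, library totals, 2 other filters, covariates, subsets of animals and each animal left out. edgeR and the permutation test were tested on simulated data. Intervals on pooled counts cover counting error only. Python 3.11.15 and matplotlib 3.10.9 gave summaries and figures.

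The members and lists were chosen with earlier results of these data known. Named beyond the 6 genes were, from each list, up to 4 called genes of smallest adjusted p per comparison. The gene of highest mean CPM in each list and the genes of the pairs considered were named too. Marker and acute-phase genes were named where given beside a result. The values of 1 gene that this rule names are not reported here. No sequence or coordinate is given. Where groups of livers are said not to overlap, the share of all genes that do so was not counted.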

Additional observations from a re-analysis of the deposited data

Results flagged for a closer look

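In 2 of the 18 combinations of gene and group tested, an animal stood far from the others by Dixon's criterion, which chance meets in about 1 group of 20. Tfr2 in NS was 619.7 CPM in the SM2 animal, and its gap to the next animal made up 0.721 of the group's range, above the limit of 0.71 for 5 animals. Hfe in C was 39.55 CPM in replicate 2, a BW male, with a gap of 0.65 of the range, above the limit of 0.625 for 6 animals. The Tfr2 animal is 1 of the 3 SM2 livers whose Tfr2 lay above all BW livers.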

How the results depend on the processing

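Of 918 alternative values of the 6 genes' fold changes, 905 kept their call status, 6 gained a call, 5 lost it and 2 reversed, meaning that a called value changed sign. A further 41 changed sign without a call in either fit, among them Tfrc and Bmp6 in S vs C with sex as a covariate and among males alone, and Cp in S vs C by library totals. The reversed values were those of Slc40a1 in S vs C, -0.01852 with sex as a covariate and -0.01784 among males alone. Calls among the 6 genes in S vs C (1, under either rule) numbered 0 with sex, with sex and stock, and among males, and 2 with stock as a covariate and among BW animals, without the fold limit. HFD vs C had 1 call among BW animals (Slc40a1, 0.96, edgeR adjusted p = 0.0716).

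Leaving out 1 animal at a time gave 0 to 2 calls of the 6 in S vs C (0 to 1 with the fold limit), 0 to 1 in S vs NS, 2 to 4 in SM2 vs BW (1 to 4 with the fold limit) and 0 to 1 for sex. Over the 77 further genes it gave 6 to 16 in S vs C, 0 to 8 in HFD vs C and 10 to 28 in SM2 vs BW. The 14 calls in S vs C became 9 with sex, 9 with sex and stock and 7 among males. The 3 in HFD vs C became 8 with DESeq2, 5 with RLE factors, 5 with 0.5 CPM in 5 animals, 8 with stock, 5 with sex and stock and 1 among males.

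Over all genes, called with the fold limit, S vs C (513) gave 927 by library totals and 858 with sex and stock. NS vs C (9) gave 45 with DESeq2, 29 with stock and 38 with both. S vs NS (1) gave 59 with DESeq2, 191 with sex, 17 with stock, 418 with both, 18 among BW animals, 157 among males and 0 with those groups alone. HFD vs C (113) gave 245 with DESeq2, 213 by library totals, 228 with sex, 231 with stock and 309 with both. The sex term (153) gave 52 with 0.5 CPM in 5 animals, 49 without stock and 650 among BW animals. Leaving out 1 animal gave 190 to 573 in S vs C, 2 to 29 in NS vs C, 1 to 15 in S vs NS, 36 to 236 in HFD vs C, 768 to 1656 in SM2 vs BW and 24 to 616 for sex. Library totals moved the median of all genes in S vs C from 0.10 to 0.33 on the log2 scale. The cause was not tested in each case.

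No pooled correlation of Tfrc with Slc40a1 is given, as the 3 females formed a separate cluster, and over males no alternative passed 0.05. The other 7 pairs were not computed. No paired analysis was possible because the labels give no replicate numbers that the groups share. With 5 or 6 animals a group and 3 SM2 animals, intervals on scarce genes such as Bmp6 stay wide.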
